A study of Mus musculus with 28 samples.

Results

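Genes of epidermal terminal differentiation were followed in hair follicle stem cells of old mice, 24 months of age, and young mice, 6 months of age. The group holds 10 genes, Klf4, Grhl3, Ovol1, Tgm1, Tgm3, Ivl, Lor, Flg, Sbsn and Dsg1a. They were taken by gene symbol, with every peak annotated to them, out of 18274 gene symbols that occur in at least 1 of the 5 deposited tables. Both ages carry the strain label 132-C67BL/6J, and no treatment or transgene is given for either. Cells were freed from skin with trypsin and sorted by flow cytometry for CD34 and α6-integrin together. RNA-seq covered 3 old and 3 young samples, ATAC-seq (a measure of open chromatin) 4 and 4, H3K27me3 ChIP-seq 3 and 3, and H3K4me3 and RNA polymerase II (Pol2) ChIP-seq 2 and 2 each, which the series design calls biological replicates. The title of the series asks about the accessibility of bivalent promoters, those that carry H3K4me3 and H3K27me3 together.

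Terminal differentiation turns a keratinocyte into a dead, cross-linked cell of the skin surface. Transcription factors such as Klf4, Grhl3 and Ovol1 switch on genes of the upper layers as cells leave the basal layer. Transglutaminases then link structural proteins into the cornified envelope, while desmosomes hold the cells together until they are shed. Many of the structural genes lie side by side in the epidermal differentiation complex. Follicle stem cells are of the same lineage and can give rise to epidermis after wounding, but they do not cornify in the bulge. H3K4me3 marks the starts of active and poised genes, H3K27me3 is the mark left by Polycomb complexes, and Pol2 is the enzyme that transcribes protein-coding genes.

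Follicle stem cell markers carried promoter marks more often than the markers of other cell types. Of 27018 genes with a promoter sequence, 7916 had an H3K4me3 promoter peak without H3K27me3 and 1199 had both. All 18 genes of the follicle stem cell list, among them Cd34, Itga6, Sox9 and Lhx2, had an H3K4me3 peak within 1 kb of a start, and 16 had a Pol2 peak there. Of 5 suprabasal epidermis markers 2 had an H3K4me3 promoter peak and none had a Pol2 peak. H3K4me3 promoter peaks were listed for 2 of 5 sebaceous, 1 of 5 melanocyte, 3 of 5 fibroblast, 1 of 3 endothelial and 0 of 6 immune markers. None of these markers had a Pol2 promoter peak. Because the samples are bulk cell populations, fewer cells of a type and less signal per cell cannot be told apart.

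Of the 10 genes, 8 had a row in at least 1 table, with 25 peaks in the 4 peak tables. Flg, whose product filaggrin bundles keratin filaments, and Dsg1a, a desmosomal cadherin, had none. The ATAC-seq table held 6 peaks of 5 genes (Lor, Ovol1, Tgm3, Ivl and Klf4), the H3K27me3 table held 7 peaks of 4 genes (Klf4, Grhl3, Lor and Tgm3), the H3K4me3 table held 9 peaks of 6 genes (Klf4, Grhl3, Ovol1, Tgm1, Lor and Sbsn) and the Pol2 table held 3 peaks of Klf4. No member stood in the RNA table. The ATAC-seq and RNA tables hold selected rows only, so a gene without a row there was not measured as unchanged.

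By promoter marks the genes fell into 4 states. Klf4, Ovol1, Tgm1 and Sbsn had an H3K4me3 peak within 1 kb of a start and no H3K27me3 peak there. Grhl3 and Lor had both marks. Tgm3 had H3K27me3 alone, and Ivl, Flg and Dsg1a had neither.

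Promoter sequence varied widely among the genes. RefSeq promoter sequences on GRCm38.p6 were matched by symbol for 8 of the 10 genes, all but Ovol1 and Dsg1a, and 5 are printed to show the contrast between 2 regulators and 3 envelope genes. Each is the 250 bases before the start, 5′ to 3′ on the gene's strand, with every CG dinucleotide and every match to TATAAA or TGANTCA in capitals. The windows are chr4:55532476-55532725 (minus strand) for Klf4, chr4:135573633-135573882 (minus strand) for Grhl3, chr3:92083143-92083392 (minus strand) for Lor, chr3:92573736-92573985 (minus strand) for Ivl and chr3:93273296-93273545 (plus strand) for Flg.
Klf4: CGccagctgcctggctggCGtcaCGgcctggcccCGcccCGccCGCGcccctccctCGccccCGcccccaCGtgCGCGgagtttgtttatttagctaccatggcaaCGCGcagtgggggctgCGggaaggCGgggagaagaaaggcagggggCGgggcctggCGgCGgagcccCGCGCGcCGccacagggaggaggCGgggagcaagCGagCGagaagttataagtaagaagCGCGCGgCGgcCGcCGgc
Grhl3: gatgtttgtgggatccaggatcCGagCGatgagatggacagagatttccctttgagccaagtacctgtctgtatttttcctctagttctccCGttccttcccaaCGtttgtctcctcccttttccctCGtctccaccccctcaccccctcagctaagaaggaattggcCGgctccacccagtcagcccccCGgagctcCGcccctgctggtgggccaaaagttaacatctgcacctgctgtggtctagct
Lor: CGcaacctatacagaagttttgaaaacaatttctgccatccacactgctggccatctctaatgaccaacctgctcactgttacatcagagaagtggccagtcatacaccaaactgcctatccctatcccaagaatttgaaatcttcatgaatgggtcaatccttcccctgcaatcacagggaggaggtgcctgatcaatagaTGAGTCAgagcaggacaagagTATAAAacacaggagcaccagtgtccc
Ivl: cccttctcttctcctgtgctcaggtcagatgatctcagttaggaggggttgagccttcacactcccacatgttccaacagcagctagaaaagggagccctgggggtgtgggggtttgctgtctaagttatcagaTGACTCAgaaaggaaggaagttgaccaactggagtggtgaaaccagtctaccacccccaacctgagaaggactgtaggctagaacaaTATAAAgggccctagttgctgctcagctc
Flg: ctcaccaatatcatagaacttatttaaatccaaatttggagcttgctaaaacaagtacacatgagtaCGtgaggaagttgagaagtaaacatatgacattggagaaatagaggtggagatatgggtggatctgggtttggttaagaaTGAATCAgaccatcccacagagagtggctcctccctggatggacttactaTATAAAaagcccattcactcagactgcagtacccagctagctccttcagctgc

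Klf4, a zinc finger factor needed for the skin barrier, had a CpG-rich promoter with 32 CG dinucleotides and an observed-over-expected CpG ratio of 0.941. That ratio was above those of 90.9% of 27018 genes, whose median was 0.378. Tgm3, Grhl3 and Tgm1 were in the middle, at 0.496, 0.431 and 0.372, the last 0.382 at a second listed start. The structural genes were poor in CpG, with 0.0893 for Flg, 0.0766 for Lor, 0.0548 for Sbsn and 0 for Ivl. Genes with H3K4me3 alone had a median ratio of 0.742, those with both marks 0.672, those with H3K27me3 alone 0.296 and those with neither 0.23. Tgm1 and Sbsn lay below the lower quartile of genes with H3K4me3 alone, 0.556, and Grhl3 and Lor below that of genes with both marks, 0.462. Of promoters with a ratio of at least 0.6, 67.7% had an H3K4me3 promoter peak, against 15.9% of those below it.

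**Figure D1:**
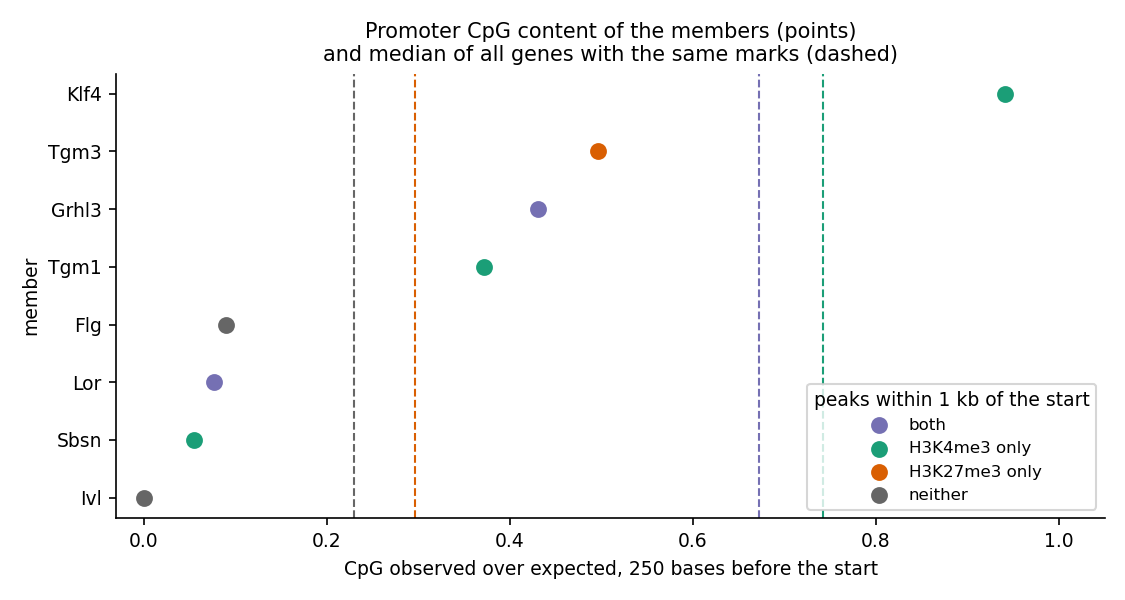
CpG observed over expected in the 250 bases before the start (x axis) for the 8 matched genes (y axis), coloured by the marks with a peak within 1 kb of a start; dashed lines are the medians of all genes with the same marks. Klf4 lies at 0.941, right of every median, while Flg, Lor, Sbsn and Ivl lie between 0 and 0.0893, left of every median.

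Motif matches were searched on both strands in the same windows. TATAAA, the TATA box letters, was found in Lor, Ivl, Tgm3 and Flg and in 13.0% of all 27018 promoters. Its first base lay 27 bases before the start in Lor, 29 in Ivl, 28 in Tgm3 and 53 in Flg. TGANTCA, a looser form of the AP-1 site TGA(C/G)TCA, was found in Lor, Ivl, Flg and Sbsn and in 6.87% of all promoters. These matches began 48, 116, 103 and 119 bases before those starts. The letters were TGAGTCA in Lor, TGACTCA in Ivl and TGAATCA in Flg, the last without the C or G of the site. AACCGGTT, the Grainyhead letters, was in none of the 8 and in 0.122% of all promoters. The searched motifs share no overlapping matches in these windows, and a match is a description of letters only.

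Open chromatin was compared at the ATAC-seq peaks to ask where accessibility differed between old and young cells. Peaks of Lor, Ovol1 and Ivl had fewer reads in old cells, by 0.61 to 0.80 on the log2 scale without scaling (Ivl turned to 0.0014 with TMM scaling), and passed the test. A Tgm3 peak and 2 Klf4 peaks did not. These 3 of 6 peaks compare with 46.4% of the 7849 listed peaks called lower, and 0 higher with 5.43% called higher. Means were lower in old cells at 4 of the 6, against 85.9% of all listed peaks. The median over the 6 peaks was −0.68, against −0.64 over all listed peaks, so their share and size were near those of the table.

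Lor encodes loricrin, the main protein of the cornified envelope. Its peak of 1600 bp (chr3:92080551-92082150, annotated as promoter, 992 bp inside the gene from the start) held 970, 922, 1062 and 829 reads in the 4 old libraries, against 1507, 1861, 1838 and 1380 in the 4 young ones. Every old library was below every young library, which was true of no other member peak. The share of all listed peaks that separate in this way is not given here, and all were selected on this grouping. The means were 945.8 ± 97.1 reads in old and 1646.5 ± 240.3 in young cells (SD, n = 4 each), a log2 fold change of −0.80 with an FDR of 0.00494 by edgeR's quasi-likelihood test over all listed peaks. It was called when any 1 library was left out, at edgeR FDR 0.00334 to 0.0205. The call was lost with TMM scaling (−0.22, edgeR FDR 0.753) and with library totals (−0.29, edgeR FDR 0.361).

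Ovol1 encodes a zinc finger repressor that moves keratinocytes out of the proliferative state. An intergenic peak 16.1 kb downstream of its start (chr19:5544051-5544450) held 132, 114, 110 and 115 reads in old libraries, against 121, 230, 202 and 238 in young ones. The old libraries lay close together, and young replicate 1 fell among them. Means of 117.8 ± 9.74 reads in old and 197.8 ± 53.4 in young cells (SD, n = 4 each) gave a log2 fold change of −0.75 (edgeR FDR 0.0421), or −0.15 with TMM scaling. Without young replicate 2, 3 or 4, or old replicate 2, 3 or 4, the call was lost (edgeR FDR 0.0657 to 0.0878).

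Ivl encodes involucrin, an early scaffold of the envelope. A peak 5.42 kb upstream of its start (chr3:92579151-92580050) held 477, 390, 356 and 530 reads in old libraries, against 420, 677, 849 and 729 in young ones. Young replicate 1 again lay inside the old range, and the other young libraries lay above it. The means were 438.2 ± 79.6 reads in old and 668.8 ± 180.8 in young cells (SD, n = 4 each). The log2 fold change of −0.61 passed (edgeR FDR 0.0337) but was 0.0014 with TMM scaling, where the direction turned. Leaving out young replicate 2, 3 or 4, or old replicate 2 or 3, also ended the call (edgeR FDR 0.0536 to 0.0912).

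Tgm3 encodes a transglutaminase of the upper epidermis and the hair. Its peak 13.6 kb upstream of the start (chr2:129998451-129998700) held 68, 27, 87 and 57 reads in old libraries, against 47, 167, 106 and 81 in young ones. The groups overlapped widely, and young replicate 1 was the second lowest of all 8 libraries. With means of 59.8 ± 25.1 in old and 100.2 ± 50.6 in young cells (SD, n = 4 each), the log2 fold change was −0.75 (edgeR FDR 0.102). It was −0.38 without young replicate 2, −0.50 without old replicate 2 and −0.15 with TMM scaling.

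The 2 Klf4 peaks ran the other way. The far one, 361.9 kb upstream of the start (chr4:55894401-55894900), was annotated to Klf4 as the nearest gene and held 490, 503, 247 and 391 reads in old libraries, against 427, 246, 266 and 203 in young ones. Old replicate 3 lay among the young libraries and young replicate 1 among the old ones. Its log2 fold change was 0.51 (edgeR FDR 0.0846), with means of 407.8 ± 118.3 in old and 285.5 ± 97.9 in young cells (SD, n = 4 each). Without young replicate 1 it was 0.77 and called (edgeR FDR 0.0402).

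The peak downstream of Klf4, 11.7 kb from the start (chr4:55520551-55520800), held 88, 53, 57 and 187 reads in old libraries, against 28, 70, 93 and 41 in young ones. Old replicate 4 stood above all the others, which overlapped. The log2 fold change was 0.73 (edgeR FDR 0.126), with means of 96.2 ± 62.5 in old and 58.0 ± 29.2 in young cells (SD, n = 4 each). Without old replicate 4 it was 0.19 (edgeR FDR 0.673). With all libraries and no scaling, neither Klf4 peak reached an unadjusted p under 0.05 in edgeR, and DESeq2 with size factors of 1 called 0 member peaks higher, while edgeR with TMM and DESeq2 with its own size factors called both.

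**Figure D2:**
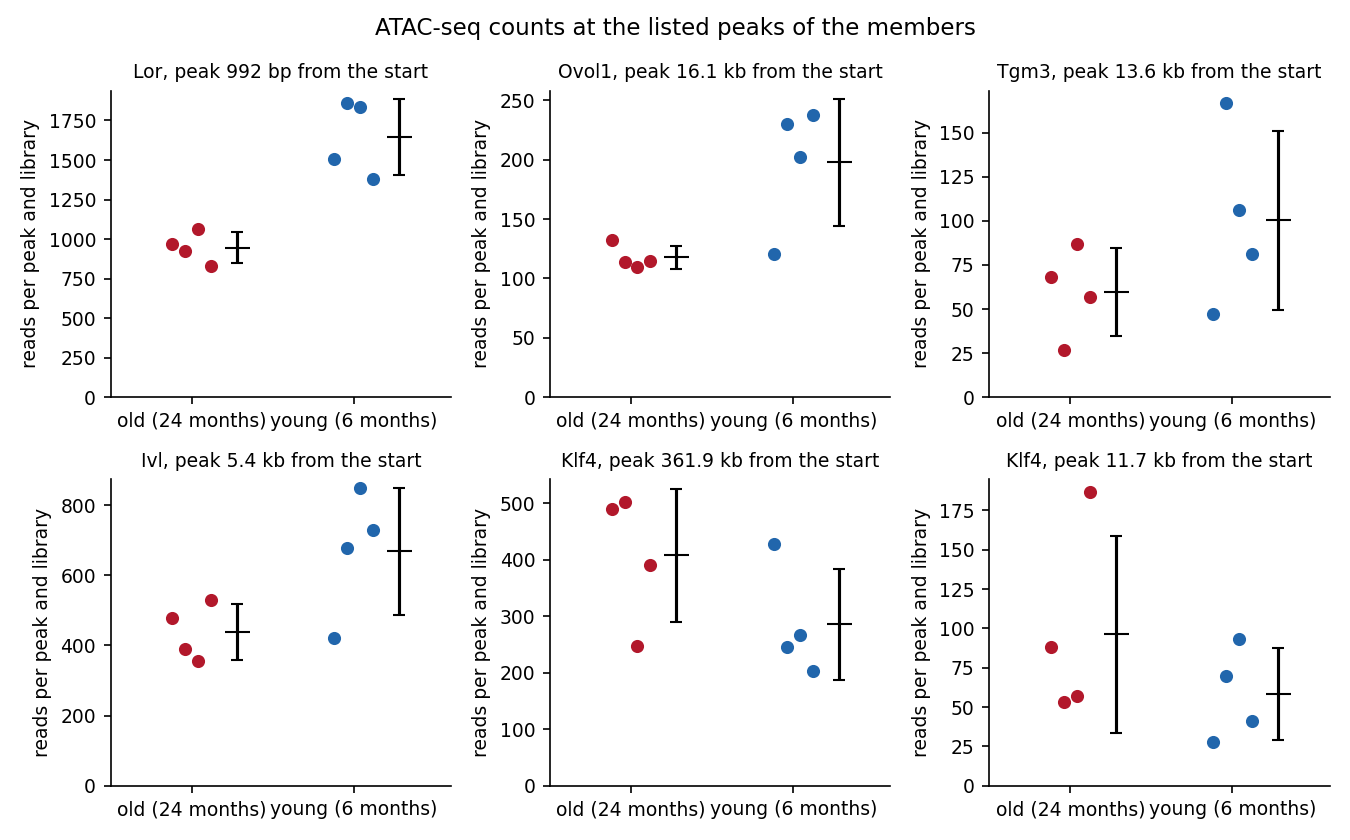
Reads per peak and library (y axis) at the 6 ATAC-seq peaks of 5 genes in 4 old and 4 young libraries (x axis); points are libraries, bars the mean ± SD, without scaling. Of these 6 peaks the groups separate at the Lor peak alone (the share over all listed peaks is not given here). With TMM scaling the Ivl difference is 0.0014, the other way round.

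All listed peaks had been selected by the authors on the same libraries (−log10 p no lower than 2.0, log2 ratio no nearer to 0 than 0.5), so the FDR ranks listed peaks and is no independent test. TMM scaling over the list moves the median by 0.59 on the log2 scale, and with it 0 member peaks were lower (0 also at an unadjusted p under 0.05; 0.701% of listed peaks called) and both Klf4 peaks were higher, at 1.08 (edgeR FDR 0.00521) and 1.37 (edgeR FDR 0.0474), where 13.9% of listed peaks were called.

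H3K4me3 was compared to ask whether the promoter mark differed with age. In the authors' deposited table it was lower in old cells at 8 of the 9 member peaks and at all 6 member promoters, Klf4, Grhl3, Ovol1, Tgm1, Lor and Sbsn. Lower H3K4me3 was the state of most of the table, where 79.1% of all 21390 peaks and 94.3% of 13505 promoter peaks were called lower, and 0.281% and 0.037% higher. The members' median difference of −1.45 compares with −1.37 over all peaks in the authors' deposited table, and their promoter median of −1.56 with −1.42. Levels are the log2 of the mean normalized reads of a peak in a group, with no value per sample, so no SD can be given. As the normalization is not given, a change shared by all peaks and a difference in scaling cannot be told apart.

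Among the regulators, Klf4 had an H3K4me3 domain of 12640 bp over its start (chr4:55522542-55535181), wider than 98.6% of promoter peaks. The authors' deposited table gives it a level of 12.98 in old and 14.58 in young cells, a difference of −1.60 (FDR 5.86e-06). Per kb, its log2 level over all samples was 10.33, above that of 99.8% of promoter peaks, by the authors' deposited table. A separate Klf4 peak of 274 bp, 9.94 kb downstream of the start, was not called, at 5.13 in old and 5.40 in young cells (−0.27, FDR 0.681 in the authors' deposited table), which is 1.10 relative to the median of all peaks.

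Ovol1 had a domain of 8401 bp (chr19:5556303-5564703), wider than 94.6% of promoter peaks, at 10.15 in old and 11.68 in young cells in the authors' deposited table (−1.53, FDR 2.25e-06). Grhl3, a Grainyhead factor that drives barrier genes, had narrow H3K4me3 peaks by comparison. One of 449 bp, 402 bp inside the gene, stood at 5.30 in old and 6.92 in young cells in the authors' deposited table (−1.62, FDR 0.000633) and was wider than 2.41% of promoter peaks. The other, 533 bp in an intron, stood at 6.57 in old and 7.46 in young cells (−0.89, FDR 0.0317, the authors' deposited table), a smaller fall than the table's median, so that its value relative to that median is 0.48.

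The largest fall of the 6 promoters was at Tgm1, the membrane-bound transglutaminase of keratinocytes. Its peak of 2063 bp (chr14:55712790-55714852) stood at 6.64 in old and 8.63 in young cells in the authors' deposited table (−2.0, FDR 6.53e-07). Of all promoter peaks in the authors' deposited table, 4.69% fell by more. Lor, with 5696 bp over the gene (chr3:92078555-92084250), stood at 9.67 in old and 10.95 in young cells (−1.28, FDR 1.76e-05, the authors' deposited table). Sbsn encodes suprabasin, a secreted protein of the upper layers, and its promoter peak of 2504 bp (chr7:30751412-30753915) stood at 7.54 in old and 8.81 in young cells (−1.27, FDR 0.000357, the authors' deposited table). A second Sbsn peak of 692 bp, 2.70 kb from the start, had −1.45 (FDR 0.00452) in the authors' deposited table.

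Lor and Sbsn fell slightly less than the median peak, by which their relative values are 0.09 and 0.10, computed from the authors' deposited table. Per kb, the other member promoters held far less H3K4me3 than Klf4. Their log2 levels per kb over all samples were 8.04 for Ovol1, 7.93 for Lor, 7.48 for Grhl3, 6.99 for Sbsn and 6.92 for Tgm1 in the authors' deposited table. The neighbours in this order cannot be told apart by their spread, since no sample values are given.

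**Figure D3:**
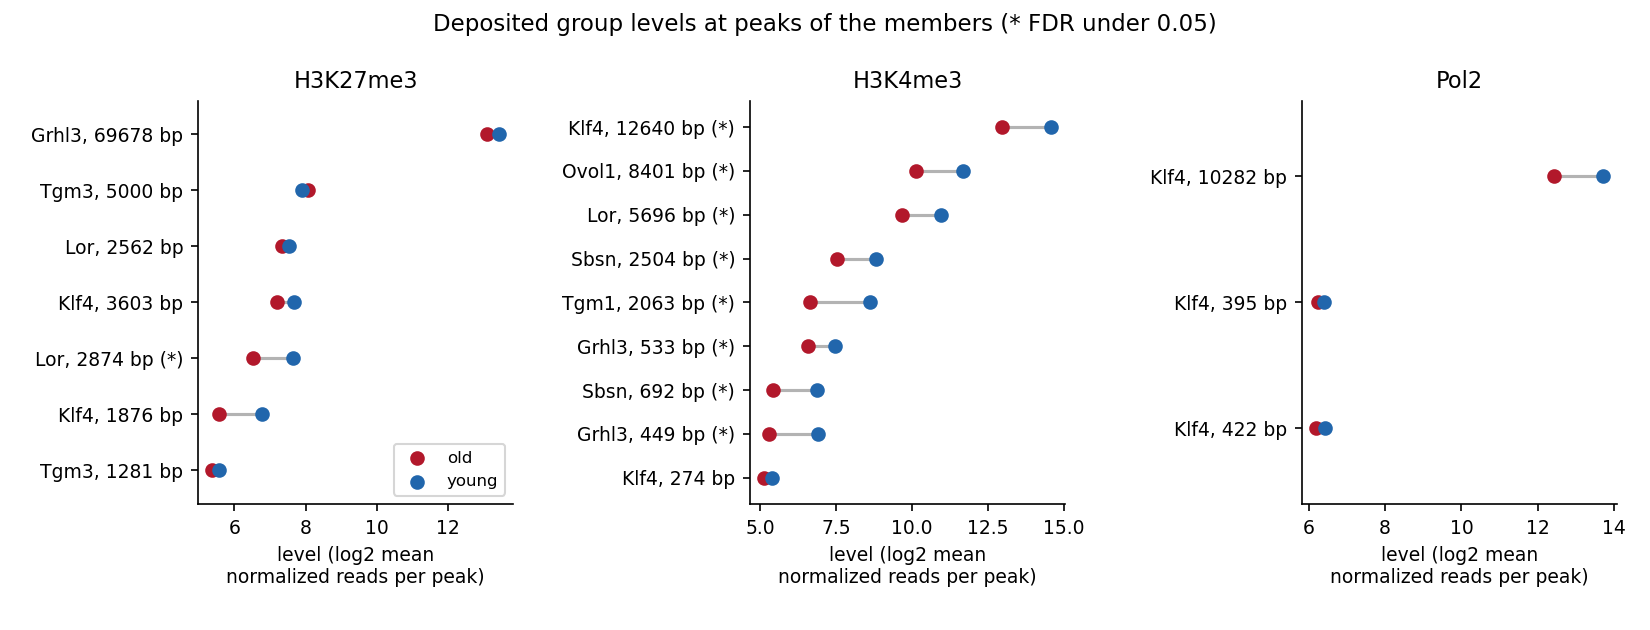
Group levels (x axis, log2 mean normalized reads per peak) in old and young cells at each member peak (y axis, named by gene and peak width) for H3K27me3, H3K4me3 and Pol2, from the authors' deposited tables; an asterisk marks an FDR under 0.05. H3K4me3 was called lower in old cells at 8 of 9 peaks, H3K27me3 at 1 of 7 and Pol2 at 0 of 3; relative to the median of all peaks in each table, values above 0 are those of the Klf4 (1.10, 274 bp), Grhl3 (0.48, 533 bp), Sbsn (0.10, 2504 bp) and Lor (0.09) H3K4me3 peaks, the Klf4 Pol2 peaks (1.58, 1.48 and 0.45) and the Tgm3 H3K27me3 promoter peak (0.05).

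H3K27me3 was compared to ask whether the Polycomb mark differed. The Lor promoter had less of it in old cells, while the wide domain over Grhl3 and the Tgm3 promoter did not pass the test. Of the 7 member peaks 1 was called lower and 0 higher in the authors' deposited table, against 2.60% and 2.66% of all 67985 peaks. There, 9.19% of 8408 promoter peaks were called lower and 3.14% higher. At an unadjusted p under 0.05, DiffBind's values in the authors' deposited table give 3 member peaks lower and 0 higher. The share of all peaks at that looser threshold is not given here, and the shares above do not apply to it.

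The Lor promoter peak of 2874 bp (chr3:92081741-92084614) stood at 6.53 in old and 7.65 in young cells in the authors' deposited table (−1.12, FDR 0.0156). A larger fall was listed for 4.88% of promoter peaks. Its neighbour of 2562 bp, 2.46 kb inside from the start, stood at 7.34 in old and 7.53 in young cells (FDR 0.807, the authors' deposited table). Both overlapped the Lor H3K4me3 peak, by 2510 and 2129 bp.

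Grhl3 lay in a domain of 69678 bp (chr4:135509702-135579379), wider than 99.4% of promoter peaks with this mark. It stood at 13.07 in old and 13.42 in young cells in the authors' deposited table (−0.35, FDR 0.111). Both narrow H3K4me3 peaks of Grhl3 lay wholly inside it. At the Tgm3 promoter a peak of 5000 bp (chr2:130009472-130014471) stood at 8.06 in old and 7.89 in young cells (0.17, FDR 0.794, the authors' deposited table), and a second peak 4.86 kb upstream at 5.38 in old and 5.58 in young cells (FDR 0.951 there). Klf4 had 2 intergenic peaks, 9.62 and 12.3 kb upstream of its start and outside its H3K4me3 domain. They differed by −1.21 (5.56 in old and 6.77 in young cells, FDR 0.194) and −0.47 (7.19 in old and 7.66 in young cells, FDR 0.518) in the authors' deposited table.

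Pol2 was compared to ask whether polymerase at these genes differed. Klf4 was the only member with Pol2 peaks, and its polymerase did not pass the test in the authors' deposited table. There 0 of its 3 peaks were called in either direction, also at an unadjusted p under 0.05 from DiffBind. The share called lower in that table was 52.9% of 6789 peaks and 79.1% of 3743 promoter peaks, and 0.0442% and 0.0% were called higher. The Klf4 promoter peak of 10282 bp (chr4:55523879-55534160) stood at 12.43 in old and 13.70 in young cells in the authors' deposited table (−1.27, FDR 0.111).

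That Pol2 peak was wider than 98.2% of Pol2 promoter peaks and, per kb, above 99.1% of them. The median was −2.28 over promoter peaks and −1.72 over all peaks in the authors' deposited table, and 86.5% of promoter peaks fell by more than Klf4 did. Smaller Klf4 peaks of 422 and 395 bp, 8.67 and 8.09 kb downstream of the start, differed by −0.24 (6.19 in old and 6.43 in young cells, FDR 0.837) and −0.14 (6.24 in old and 6.39 in young cells, FDR 0.905) in the authors' deposited table. Relative to the median of all peaks, the 3 Klf4 peaks had 0.45, 1.48 and 1.58. All 3 lay inside the Klf4 H3K4me3 domain.

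By H3K4me3 and Pol2 levels together, over 2984 genes with both kinds of promoter peak, the nearest to Klf4 were Dsp, which encodes the desmosomal linker desmoplakin, and Per1, a clock gene. Their Euclidean distances over the 4 log2 group levels were 0.356 and 0.370. In the authors' deposited tables Dsp had an H3K4me3 level of 13.04 in old and 14.35 in young cells and a Pol2 level of 12.33 in old and 13.46 in young cells.

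**Figure D4:**
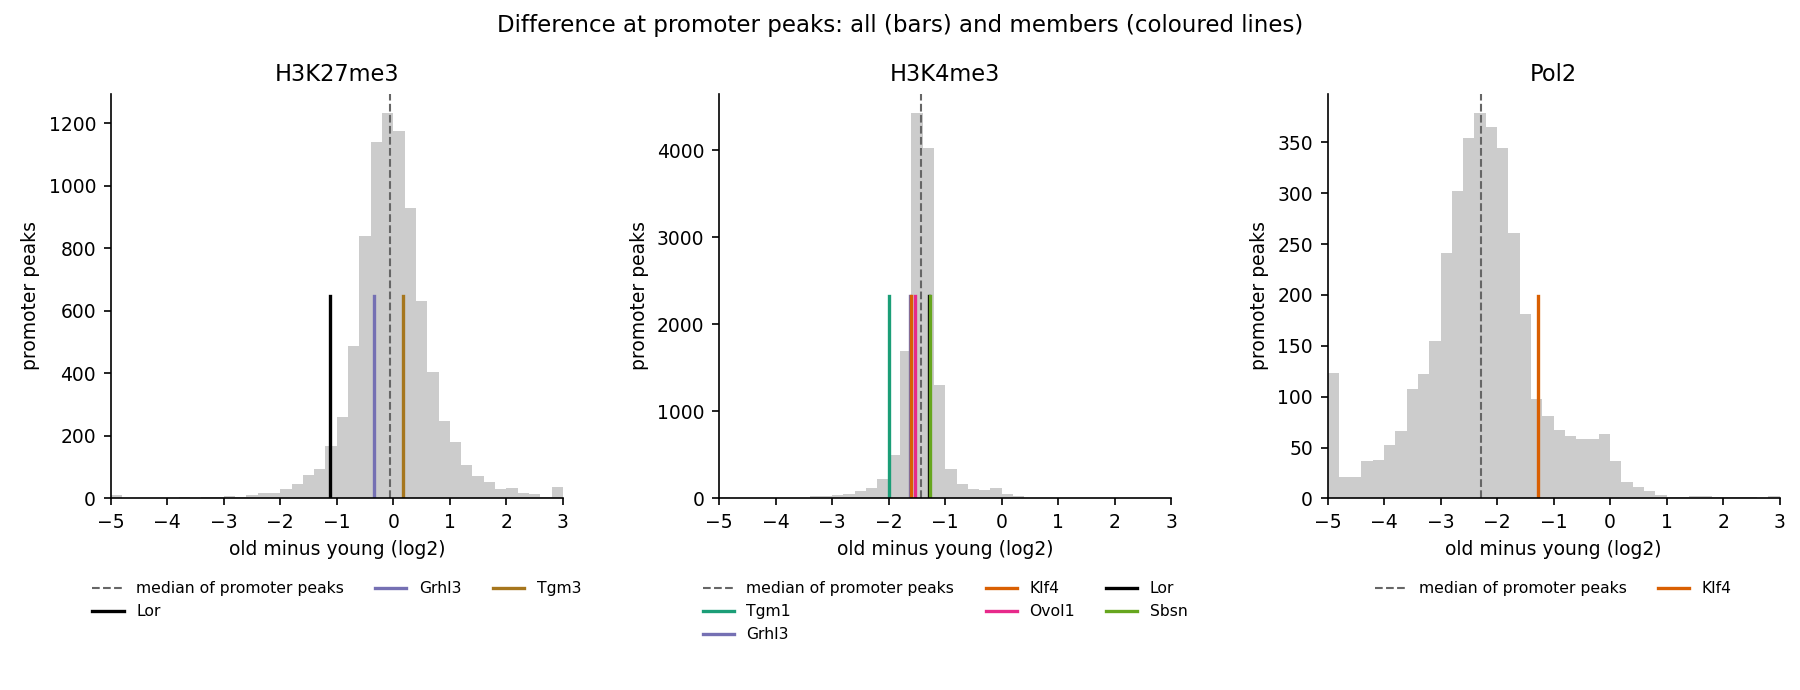
Number of promoter peaks (y axis, grey bars, end bars holding all values beyond the axis) by their old minus young difference (x axis, log2) in the authors' deposited H3K27me3, H3K4me3 and Pol2 tables, with the medians dashed and the members as coloured lines of arbitrary height. Lor lies left of the H3K27me3 median at −1.12, the 6 members lie from −2.0 to −1.27 around the H3K4me3 median of −1.42 (0.09 for Lor and 0.10 for Sbsn relative to the median of all peaks), and Klf4 lies right of the Pol2 median of −2.28 at −1.27 (0.45 relative to the median of all peaks).

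RNA gave no value for the members. The authors' deposited table lists 597 genes with an adjusted p up to 0.1, of which 56.8% are under 0.05, and none of the 10 is among them. Of the wider pathway 2 genes were listed and called. Zfp750, a zinc finger activator of late differentiation, was lower in old cells, with a log2 fold change of −0.80 (SE 0.18, adjusted p 0.00249, the authors' deposited table). Perp, a desmosomal membrane protein and p63 target, was higher, at 0.49 (SE 0.11, adjusted p 0.00207, the authors' deposited table). Of the marker lists, Nfatc1 (−0.34, adjusted p 0.0948) and Col1a2 (−0.39, adjusted p 0.0861) were listed in the authors' deposited table and not called.

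Around the members, 48 other genes of the epidermal differentiation complex had listed ATAC-seq peaks in part and almost no H3K4me3 or Pol2 peaks. The ATAC-seq table holds only peaks selected for an age difference, so a gene without one was not measured as closed. It held 23 peaks of 12 of the 48 genes, all with a lower mean in old cells (85.9% of all listed peaks had one). A peak was called lower at all 12 genes, against 53.7% of the 4729 genes in the table (15 of 23 peaks, median −0.67, and 0 peaks with TMM). Sprr1a, a small proline-rich envelope protein, held 780, 746, 716 and 696 reads at its start in old libraries, against 1057, 1156, 1206 and 1188 in young ones (−0.65, edgeR FDR 0.0111, without scaling). Crnn, which encodes cornulin, had −0.54 (edgeR FDR 0.0146), turning to 0.05 with TMM scaling. Sprr2b had −1.11 at a peak 7805 bp upstream (edgeR FDR 0.00479), with 297.0 ± 56.5 reads in old and 639.0 ± 101.2 in young cells (SD, n = 4 each).

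Tchh was the only gene of that complex list with H3K4me3 or Pol2 peaks. It encodes trichohyalin, a protein of the inner root sheath and medulla of the hair rather than of the envelope. Its promoter stood at 10.85 in old and 12.28 in young cells for H3K4me3 in the authors' deposited table (−1.43, FDR 5.97e-06). A Tchh Pol2 peak 4783 bp from the start had −1.65 (FDR 0.0292, the authors' deposited table). For H3K27me3, 6 of the 48 had peaks and 1, Lce1a1, was called higher, against a young level that is the lowest the authors' deposited table gives, so no fold is printed. Over all genes with H3K27me3 peaks in that table, 10.5% had one called higher.

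Desmosome and envelope scaffold genes carried H3K4me3 at 19 of 22, and all 19 had a called lower peak in the authors' deposited table, where 95.5% of 12697 genes did. By peaks this was 31 of 43, against 79.1% of all peaks. Envoplakin (Evpl) had the lowest FDR of the promoter peaks, at 9.41 in old and 11.33 in young cells (−1.92, FDR 3.24e-08, the authors' deposited table), followed by plakoglobin (Jup, −1.53, FDR 6.58e-07) and plakophilin 3 (Pkp3, −1.51, FDR 1.2e-06). Pol2 was lower at 10 of 12 genes but 14 of 39 peaks of this list in the authors' deposited table, where 84.5% of 3595 genes and 52.9% of all peaks were. Among them were periplakin (Ppl, −2.67, FDR 0.00181), desmoglein 3 (Dsg3, −2.02, FDR 0.0116) and dermokine (Dmkn, −1.78, FDR 0.0145). Its 22 ATAC-seq peaks at 14 genes all had lower means in old cells (85.9% of all listed peaks did). Of the 14 genes 9 had a called one (with TMM 0), against 53.7% of all genes in the ATAC-seq table. Dsg1c, a neighbour of Dsg1a in the desmoglein cluster, held 25, 42, 21 and 21 reads in old libraries, against 109, 79, 62 and 64 in young ones, at a peak 2890 bp upstream (−1.52, edgeR FDR 0.0154). Csta1, a cystatin of the envelope, had −0.57 (edgeR FDR 0.0288), but 0.02 with TMM scaling, and Dsp had −0.87 (edgeR FDR 0.0161).

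Lipid barrier and cornification enzymes had H3K4me3 peaks at 15 of 21 genes, 14 of them with a called lower one in the authors' deposited table (17 of 22 peaks). These are 93.3% of genes and 77.3% of peaks, near the 95.5% of all genes and 79.1% of all peaks. Abhd5, a lipase activator, stood at 8.91 in old and 10.60 in young cells (−1.69, FDR 1.02e-07), and Cst6, a cystatin that restrains cornification proteases, at 5.74 in old and 8.20 in young cells (−2.45, FDR 1.05e-07), both in the authors' deposited table. Asprv1, a filaggrin-processing protease, was called lower there (FDR 1.68e-08) against an old level at the lowest value of the table, so no fold is given. All 3 genes with Pol2 peaks had one called lower in the authors' deposited table, where 84.5% of all genes did. There Abhd5 had −2.87 (FDR 0.00214) and Aloxe3, a barrier lipoxygenase, −1.76 (FDR 0.0417). The protease inhibitor Spink5 had −1.79 (FDR 0.0269, the authors' deposited table) at a peak 30156 bp upstream of its start. In ATAC-seq 3 of 4 genes with peaks had one called lower without scaling (with TMM 0), against 53.7% of all genes in the table. They were Spink5, the glucosylceramide synthase Ugcg (−0.73, edgeR FDR 0.0160) and the cornification caspase Casp14 (−0.62, edgeR FDR 0.0436). The Casp14 peak lay 25743 bp from the start. Its groups overlapped, with 934, 917, 698 and 387 reads in old libraries, against 910, 821, 1116 and 1678 in young ones. Of 33 H3K27me3 peaks of this list 1 was called lower and 1 higher, 3.03% each and near the table's 2.60% and 2.66%. They lay at Elovl4, a fatty acid elongase (lower, −0.61, FDR 0.0149), and near Klk5, a kallikrein (higher, 2.89, FDR 0.0179), in the authors' deposited table.

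Other regulators of the programme had H3K4me3 peaks at 20 of 23 genes, 19 with a called lower one in the authors' deposited table (42 of 75 peaks), led by the nuclear receptors Rxra (−2.05, FDR 8.4e-09) and Ppard (−1.59, FDR 1.7e-07) and by Prdm1 (−1.55, FDR 4.36e-07), a repressor also known as Blimp1. Pol2 was lower at 12 of 13 genes but 16 of 37 peaks in the authors' deposited table, where 84.5% of all genes and 52.9% of all peaks were. Values there were −2.54 at Cebpa (FDR 0.00217), −2.54 at Maf (FDR 0.00271) and −2.80 at Klf5 (FDR 0.003). Of 59 ATAC-seq peaks at 15 genes, 56 had lower means in old cells, against 85.9% of all listed peaks. A peak was called lower at 11 genes and higher at 1, Notch1, which had both (with TMM 0 genes lower and 3 higher). Of all genes in the ATAC-seq table, 53.7% had a peak called lower and 7.97% had one called higher, without scaling. With TMM scaling 0.701% of all listed peaks were called lower and 13.9% higher. The Notch1 peak 5222 bp from the start had −0.75 (edgeR FDR 0.0119), and the one 37029 bp upstream had 0.83 (edgeR FDR 0.0391). At the Prdm1 promoter the ATAC-seq value was −0.54 (edgeR FDR 0.0287) but 0.04 with TMM scaling. A distant peak annotated to Klf5, 90560 bp from its start, had −0.73 (edgeR FDR 0.0149), or −0.12 with TMM scaling. Of 61 H3K27me3 peaks of the regulators 2 were called lower and 1 higher in the authors' deposited table. These are 3.28% and 1.64%, against 2.60% and 2.66% of all peaks. H3K27me3 was lower at the Gata3 promoter, 11.37 in old and 12.04 in young cells (−0.67, FDR 3.4e-06), and higher 4755 bp from the Prdm1 start (3.13, FDR 0.00995), both in the authors' deposited table.

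Epidermal keratins had H3K4me3 peaks at 6 of 8 genes, all 6 with a called lower one in the authors' deposited table, where 95.5% of all genes had one. The basal pair stood at 13.90 in old and 15.25 in young cells for Krt5 (−1.35, FDR 0.000184) and at 12.37 in old and 13.70 in young cells for Krt14 (−1.33, FDR 1.56e-05) in the authors' deposited table. Krt80, a keratin of suprabasal cells, had −1.24 (FDR 2.7e-05, the authors' deposited table) and an ATAC-seq peak 2226 bp upstream with −0.63 (edgeR FDR 0.0132, without scaling; with TMM 0 keratin peaks were called). Pol2 was lower at Krt5 (−1.52, FDR 0.0456), Krt14 (−1.60, FDR 0.0476) and near Krt78 (−2.99, FDR 0.00108) in the authors' deposited table, where 84.5% of all genes had a called lower peak. Krt5 and Krt14 are also on the follicle stem cell list.

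Across these 5 lists, 36 of 46 genes (78.3%) had an ATAC-seq peak called lower without scaling, against 53.7% of all genes in the table, and by peaks 58.9% of 112 against 46.4%. A peak was called higher at 1 of the 46 genes (2.17%, against 7.97% of all genes in the table). H3K4me3 was called lower at 59 of 61 genes (96.7%, against 95.5% of all genes) but at 66.2% of 151 peaks, against 79.1% of all peaks, in the authors' deposited table. Pol2 was called lower at 29 of 32 genes (90.6%, against 84.5% of all genes) but at 44.7% of 85 peaks, against 52.9% of all peaks, in the authors' deposited table. The shares over all genes, here and for each list, rest on fewer peaks than the shares over all peaks. They cover 19159 H3K4me3 and 5780 Pol2 peaks, of which 80.9% and 58.1% were called lower. A gene with many peaks more easily has 1 called, and none of these differences was tested. Without old replicate 3, 23 genes had an ATAC-seq peak called lower, and with TMM 0 did (5 at an unadjusted p under 0.05). All listed peaks called lower went from 3643 to 1409 without old replicate 3 and to 55 with TMM. The shares of all genes under these settings are not given here.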

How the data were processed

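The 28 libraries were grouped by assay and age from their labels. The submitters' processing notes name STAR 2.5.2b, featureCounts, DESeq2 1.22.2 and GRCm38.p5 for RNA. They name BWA 0.7.12 for ATAC-seq, and BWA 0.7.15, MACS2 2.2.7.1 and DiffBind 2.14.0 for ChIP-seq, all on GRCm38. In the deposited ATAC-seq table, the authors give whole-number counts per peak and library, a log2 ratio and a −log10 p, per the file headers. The deposited RNA table gives a mean normalized signal, a log2 fold change, a Wald score and p-values, per the file headers, and its sign is the one its header states. The authors' ChIP-seq tables give group levels, a difference, p-values and FDR for merged peaks, with the normalization not given in the sources used here; their young minus old differences were turned to old minus young. Totals over listed ATAC-seq peaks were 1572998 to 1946804 in old and 2456110 to 2773284 in young libraries and are not sequencing depths, and the depth of the other libraries is unknown.

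ATAC-seq counts were tested across all 7849 listed peaks with edgeR 4.0.16 (quasi-likelihood F-test, equal library sizes, two-sided, Benjamini-Hochberg adjustment, FDR under 0.05) in R 4.3.3, after a test on simulated data. Alternatives were TMM, library totals, DESeq2 1.42.0, filterByExpr, a replicate block and leaving out each library. No pair of the 8 libraries agreed within sampling noise (lowest chi-square per degree of freedom 10.8). ChIP-seq and RNA calls use the authors' FDR or adjusted p at 0.05. Values were joined with Python 3.11.15 and pandas 2.3.3 and drawn with matplotlib 3.10.9. Overlaps need at least 1 bp. Named genes are the 10 members with every peak, and from each pathway list up to 3 genes per table and direction with the lowest FDR, promoter peaks first. One result that this rule names is not reported here. The members, lists and tests were chosen with earlier results of these data known. Promoter sequences come from RefSeq on GRCm38.p6.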

Additional observations from a re-analysis of the deposited data

Results flagged for a closer look

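At the start of Spink5 the young libraries were uneven. Old libraries held 213, 213, 236 and 186 ATAC-seq reads, and young replicate 1 held 248 against 340 to 353 in the other young libraries. Its gap to the nearest of them was 0.876 of the group's range, above the critical value of Dixon's test for 4 samples. In all, 40 groups of 4 libraries were checked, and chance flags about 1 in 20 groups. Young replicate 1 was the lowest young library at the Ovol1, Ivl, Tgm3 and downstream Klf4 peaks, but the highest at the far Klf4 peak (427 against 203 to 266) and at the Dsg1c peak (109 against 62 to 79). Whether this library differs from the other young libraries was not tested.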

How the results depend on the processing

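ATAC-seq calls depended on scaling. Listed peaks called lower and higher numbered 3643 and 426 without scaling, 55 and 1088 with TMM, 80 and 1070 with library totals, 82 and 1082 with DESeq2 and its own size factors, and 4595 and 607 with DESeq2 and size factors of 1. Member peaks called lower and higher numbered 3 and 0 without scaling, 0 and 2 with TMM, 0 and 1 with library totals, and 0 and 2 with DESeq2's own size factors. Genes of the 5 pathway lists with a peak called lower and higher numbered 36 and 1 without scaling, 0 and 3 with TMM, 1 and 3 with library totals, and 1 and 3 with DESeq2's own size factors. The Ivl difference was 0.0014 with TMM. The filter removed no peak.

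Without single libraries, listed peaks called lower ranged from 1409 (without old replicate 3) to 3197 and higher from 141 to 373, member peaks called lower from 1 to 3 and higher from 0 to 1, and pathway genes lower from 23 to 34 and higher from 0 to 1. Libraries share replicate numbers across ages, but the deviations of same-numbered libraries correlated at −0.0266, −0.109, 0.0354 and −0.186, so they were not taken as pairs, and old replicate 3 alone correlated best with its own number. With a replicate block 755 listed peaks were lower and 91 higher, 1 member peak was lower (Lor, edgeR FDR 0.0324), and 15 pathway genes were lower and 0 higher.

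At an FDR under 0.01 in the authors' deposited tables, H3K27me3 was called lower at 0 member peaks (main count 1) and at 1 pathway gene (main count 3), and Pol2 was lower at 11 pathway genes (main count 29). The shares of all peaks and genes at an FDR under 0.01 are not given here, so these falls cannot be set against those of the whole tables. With promoter peaks only, H3K27me3 was higher at 0 pathway genes (main count 3), where 3.14% of all H3K27me3 promoter peaks were called higher. Relative to the median of all peaks in a table, the H3K4me3 peaks of Klf4 (274 bp, 1.10, not called), Grhl3 (intron, 0.48), Sbsn (promoter, 0.10) and Lor (0.09) and the 3 Klf4 Pol2 peaks (1.58, 1.48 and 0.45, not called) turned positive. The cause was not tested. The counts of pathway genes under each setting were added after seeing the data. ATAC-seq counts are those of selected peaks, ChIP-seq groups of 2 or 3 carry no sample values, and no member has an RNA value, so precision beyond the authors' own tests cannot be given.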
